A study of Mus musculus with 6 samples.

Results

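The colony-stimulating factor genes Csf1, Csf2 and Csf3 were followed in cultured endothelial cells of the mouse brain, untreated or exposed to the cytokine IL-36β. The members were taken by gene symbol from the deposited expression table, which lists 54532 genes; all 3 were found, and each had a single entry. They were proposed with the difference between these same libraries in view, so their difference is given below as a description and without a test. Expression was measured by poly(A) RNA sequencing of brain microvascular endothelial cells, the cells that line the capillaries of the brain, grown from brain vessel fragments of wild-type C57BL/6J mice. The cultures had passed through a puromycin selection before they reached confluence. The 3 IL-36β libraries came from cells given processed DEVD mIL-36β at 100 ng/ml for 24 h, and the 3 untreated libraries from cells without it. The labels give no time for the untreated cells. If these were taken before the 24 h, IL-36β and further time in culture cannot be told apart. The labels give no animal age or number, no vehicle for the untreated cells, and do not say whether replicates were grown as separate cultures, so the spread between libraries may be technical.

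Colony-stimulating factors are secreted proteins first known for making bone marrow precursors grow into colonies of mature blood cells. Csf1 encodes macrophage colony-stimulating factor (M-CSF), which acts through the receptor tyrosine kinase encoded by Csf1r and maintains macrophages and, in the brain, microglia. Csf2 encodes granulocyte-macrophage colony-stimulating factor (GM-CSF), whose receptor pairs a ligand-specific α chain (Csf2ra) with a β chain (Csf2rb) that is shared with IL-3 and IL-5. Csf3 encodes granulocyte colony-stimulating factor (G-CSF), which drives neutrophil production through the receptor encoded by Csf3r. Despite the common name, M-CSF signals through a tyrosine kinase, while GM-CSF and G-CSF signal through cytokine receptors that use Janus kinases.

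Csf1 (ENSMUSG00000014599) lies on chromosome 3, from 107741048 to 107760469 on the minus strand of GRCm38, with 5281 bases of gene length in the table. Csf2 (ENSMUSG00000018916) lies on chromosome 11, from 54247271 to 54249667 on the minus strand, with 800 bases. Csf3 (ENSMUSG00000038067) lies on the same chromosome, from 98701263 to 98703629 on the plus strand, with 1413 bases. The one gene in the table that overlaps a member, the antisense gene Gm12223 at Csf2, had 0 reads in every library.

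Short-lived cytokine messages often carry the pentamer ATTTA, with U for T in the RNA, in the 3′ untranslated region, where proteins of the tristetraprolin family bind. The stretch of 28 bases with the most copies is shown for each member because it separates them; each was read from GENCODE M21 transcripts (GRCm38) in the 3′ untranslated region of the transcript with the longest one, 5′ to 3′ on the gene's strand, with the pentamers in capitals.
Csf1, chr3:107741109-107741136, minus strand: tatataaggtcATTTAaatatctATTTA
Csf2, chr11:54247329-54247356, minus strand: tttaaatATTTATTTATTTATTTATTTA
Csf3, chr11:98702986-98703013, plus strand: tagtttATTTAtctctATTTAatATTTA
In the Csf2 stretch 5 overlapping pentamers follow each other without a gap, against 3 in the Csf3 stretch and 2 in the Csf1 stretch. The whole 3′ untranslated region of Csf2 held 9 pentamers in 317 bases, or 28.4 per kb, a density that 0.0858% of 20969 genes in the table reached. That of Csf3 held 6 in 669 bases, or 8.97 per kb, reached by 1.62% of genes. That of Csf1 held 4 in 2111 bases, or 1.89 per kb, reached by 37.5% of genes. The longer motif ATTTATTTA occurred 5 times in Csf2 and not in Csf1 or Csf3, and 0.172% of genes had as many.

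The promoter windows of Csf1 and Csf2 span the RefSeq start of each gene (GRCm38.p6). They are shown because the regulators named further on are known to bind such windows in cytokine genes. No window was available for Csf3, so its promoter was not searched. Capitals mark matches on either strand to the NF-κB consensus or to TTGCNNAA, which resembles the C/EBP consensus.
Csf1, chr3:107760420-107760719, minus strand: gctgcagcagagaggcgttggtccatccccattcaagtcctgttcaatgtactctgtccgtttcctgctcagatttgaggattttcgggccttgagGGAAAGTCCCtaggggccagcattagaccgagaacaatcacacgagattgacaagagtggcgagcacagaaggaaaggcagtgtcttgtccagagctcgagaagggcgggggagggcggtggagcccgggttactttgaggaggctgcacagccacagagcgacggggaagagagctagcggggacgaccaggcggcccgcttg
Csf2, chr11:54249850-54250149, minus strand: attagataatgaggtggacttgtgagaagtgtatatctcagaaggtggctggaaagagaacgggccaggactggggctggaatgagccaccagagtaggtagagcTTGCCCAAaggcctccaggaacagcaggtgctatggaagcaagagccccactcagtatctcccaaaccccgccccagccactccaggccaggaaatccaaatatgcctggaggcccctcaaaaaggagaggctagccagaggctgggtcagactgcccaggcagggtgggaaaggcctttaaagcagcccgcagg
The Csf1 window held 1 match to the NF-κB consensus, GGAAAGTCCC on the opposite strand, and the Csf2 window held 0. This consensus occurred in 8.46% of 32851 RefSeq promoter windows of the same length. It was chosen after the windows had been read: a looser form, tried first, matched 3 times in Csf1, 1 time in Csf2 and in 20.7% of windows, so the presence or absence of a match depends on the pattern used. TTGCNNAA occurred once in the Csf2 window, not in that of Csf1, and in 10.8% of windows. No match to GAGATTCC (the core of the cytokine element CK-1, in 0.904% of windows), TATAAA (13.6%), TGANTCA (AP-1, 7.81%) or TTCCGG (ETS core, 14.9%) was found in these windows. The Csf1 starts in RefSeq and in the expression table are the same. The RefSeq start of Csf2 lies 232 bases upstream of the start in the expression table, so its window ends upstream of that start. The bases between the Csf2 window and that start were not searched, so the matches and absences given here do not cover them.

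Libraries held 15180389 to 19544689 reads assigned to genes. Values are FPKM, reads per kilobase of gene length scaled by 1 factor per library, so that levels can be compared between genes. The comparison was fitted with limma on log2(FPKM + 0.5) over 12618 genes with at least 0.5 FPKM in at least 3 libraries, and a gene was called at a Benjamini-Hochberg adjusted p under 0.05. Of these genes 21 (0.166%) were called higher and 2 (0.0159%) lower with IL-36β. The libraries carry letters: A and B for untreated replicates 1 and 2 and IL-36β replicate 1, D and E for the others. The labels do not say what the letters mark, and values within each of these sets stand beside the pooled ones.

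Csf1 was abundant in untreated cells and 1.78 times as abundant with IL-36β. Csf3 stood near the bottom of the expressed genes in untreated cells and among the well expressed ones with IL-36β. Csf2 was low in both groups. All 3 members passed the filter on low values, Csf2 in 5 of the 6 libraries and the others in all 6. In all 3 the lowest IL-36β library stood above the highest untreated library, a pattern found in 8.95% of the genes tested; since the members were chosen on this contrast, nothing is read from that count.

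Untreated replicates 1 to 3 held Csf1 at 109, 132 and 123 FPKM. IL-36β replicates 1 to 3 held it at 201, 220.2 and 227 FPKM. Both groups were tight, and the lowest IL-36β library was 1.52 times the highest untreated one. The means were 121 ± 11.8 and 216 ± 13.5 FPKM (SD, n = 3 per group), a fitted log2 fold change of 0.83 with a standard error of 0.11. These values rest on 9340 to 21831 reads per library, so counting error is small beside the spread between libraries. Taken separately, the A and B libraries gave a fold of 1.67 and the D and E libraries one of 1.81. The gene-level value does not separate the transcripts that encode secreted M-CSF from those that encode its membrane-bound form.

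For Csf3, untreated replicates 1 to 3 gave 1.96, 1.05 and 0.736 FPKM, which is 45, 30 and 16 reads. IL-36β replicates 1 to 3 gave 44.9, 26.8 and 19.7 FPKM, which is 984, 622 and 506 reads. The lowest IL-36β library was 10.0 times the highest untreated one, and within the IL-36β group replicate 1 was the highest and replicate 3 the lowest. The means were 1.25 ± 0.636 FPKM untreated and 30.4 ± 13.0 FPKM with IL-36β (SD, n = 3 per group), so the IL-36β libraries differed among themselves by many times the untreated level, while the groups stayed apart. The fitted log2 fold change was 4.12 with a standard error of 0.34. Between libraries that share a letter, the FPKM ratio was 22.9 for the A libraries and 36.4 for the D libraries, and on the log2(FPKM + 0.5) scale the A and B libraries gave a fold of 23.2 and the D and E libraries 19.0.

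For Csf2, untreated replicates 1 to 3 gave 0.847, 1.11 and 0 FPKM, and the treated ones gave 5.32, 1.98 and 2.06 FPKM in the same order. In reads these were 11 (exact Poisson 95% interval 5.49 to 19.7), 18 (10.7 to 28.4) and 0 (0 to 3.69) in the untreated libraries. The IL-36β libraries had 66 (51.0 to 84.0), 26 (17.0 to 38.1) and 30 (20.2 to 42.8) reads. Intervals cover counting error only. As a separate one-sided limit, a count of 0 is taken to allow up to 3 reads, or 0.244 FPKM, in untreated replicate 3. The groups did not overlap in FPKM, but some of these read intervals did. That of untreated replicate 2 overlapped those of IL-36β replicates 2 and 3. That of untreated replicate 1 overlapped that of IL-36β replicate 2. The means were 0.652 ± 0.580 and 3.12 ± 1.90 FPKM (SD, n = 3 per group), and IL-36β replicate 1 held more than the other two together. The fitted log2 fold change was 1.70 with a standard error of 0.50, and it was 1.18 without untreated replicate 3, the library at 0 reads. At these levels the added 0.5 FPKM lowers the fold: with 0.1 FPKM added it was 2.58 on the log2 scale. By library set the fold was 3.95 (A, B) or 5.04 (D, E). The untreated side of the D and E fold is replicate 3 at 0 reads, so that fold rests on the added 0.5 FPKM. The FPKM ratio was 6.28 for the A libraries, and none is given for the D libraries, where the untreated one had 0 reads.

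**Figure D1:**
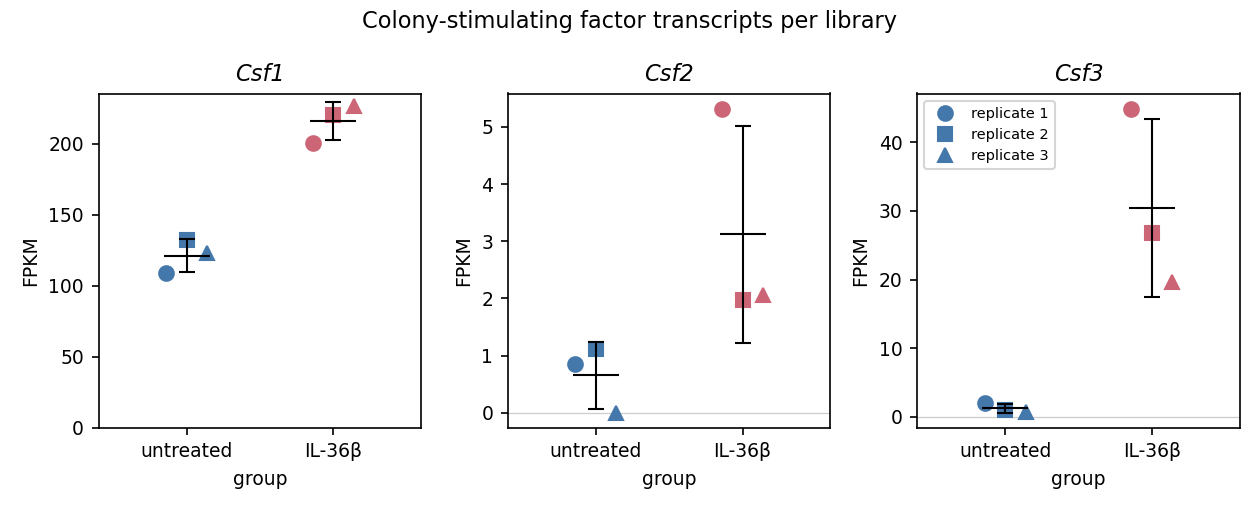
FPKM of Csf1, Csf2 and Csf3 in each untreated (blue) and IL-36β (red) library, on a separate linear axis per gene; symbols mark replicates 1 to 3, and black bars the mean and SD of 3 libraries. In each panel all IL-36β libraries lie above all untreated ones, and IL-36β replicate 1 is the highest for Csf2 and Csf3 but the lowest of its group for Csf1.

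Per length of transcript, the order in untreated cells was Csf1, then Csf3 and Csf2, and the last pair did not differ beyond their spread (1.25 ± 0.636 and 0.652 ± 0.580 FPKM). With IL-36β the order was Csf1, Csf3, Csf2, with no overlap between the libraries of neighbouring genes. By mean FPKM among the 12618 genes tested, Csf1 ranked 322 in untreated and 182 in IL-36β cells. Csf3 ranked 10708 and 1700, and Csf2 12035 and 8407. Csf1 made up 97.5 to 99.4% of the summed FPKM of the 3 members in untreated libraries and 80.0 to 91.3% in IL-36β libraries, where Csf3 made up 7.91 to 17.9%. The gene with the smallest fold thus had the largest gain in level: 94.8 FPKM for Csf1, 29.2 for Csf3 and 2.47 for Csf2, of which Csf1 was 75.0%. In whole-culture RNA, more cells making a transcript and more transcript per cell cannot be told apart.

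The receptors of the 3 factors were nearly absent or incomplete in these cells. Csf3r, the only receptor of G-CSF, had 1 read in all 6 libraries together, and 3 reads would be 0.0410 to 0.0541 FPKM. Csf1r, the receptor of M-CSF, had 27 reads in all, from 0 to 13 per library, with 0.171 FPKM as its highest value. Its 13 reads were in IL-36β replicate 1. Csf2ra, the GM-CSF-binding chain, was present at 7.63, 8.28 and 9.07 FPKM in the untreated libraries, replicates 1 to 3, against 9.55, 6.74 and 9.10 FPKM with IL-36β. Csf2rb, the chain that signals, had 0 to 4 reads per library, 16 in all. Its close copy Csf2rb2, the IL-3-specific β chain of mice, had 12 to 38 reads per library (0.139 to 0.521 FPKM), and reads of these near-identical genes may have been assigned to either. Of the GM-CSF receptor pair, the α chain was thus the one read at more than trace level.

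Of 9 receptor genes listed, 4 passed the filter and none was called; limma gave none of them an unadjusted p under 0.05, against 10.4% of all genes tested (5.96% higher and 4.41% lower), and edgeR and DESeq2 called none. Csf2ra had a fold of 1.01 (95% confidence interval 0.797 to 1.27). Il3ra, the IL-3 binding chain, was the most abundant at 27.0 to 30.7 FPKM without and 29.2 to 48.0 FPKM with IL-36β, a fold of 1.21 (0.896 to 1.62). Il5ra had 6 reads in all. Ptprz1 and Sdc1, which encode a phosphatase and a syndecan reported as further binding partners of IL-34, had folds of 0.608 (0.342 to 1.08) and 0.982 (0.740 to 1.30).

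**Figure D2:**
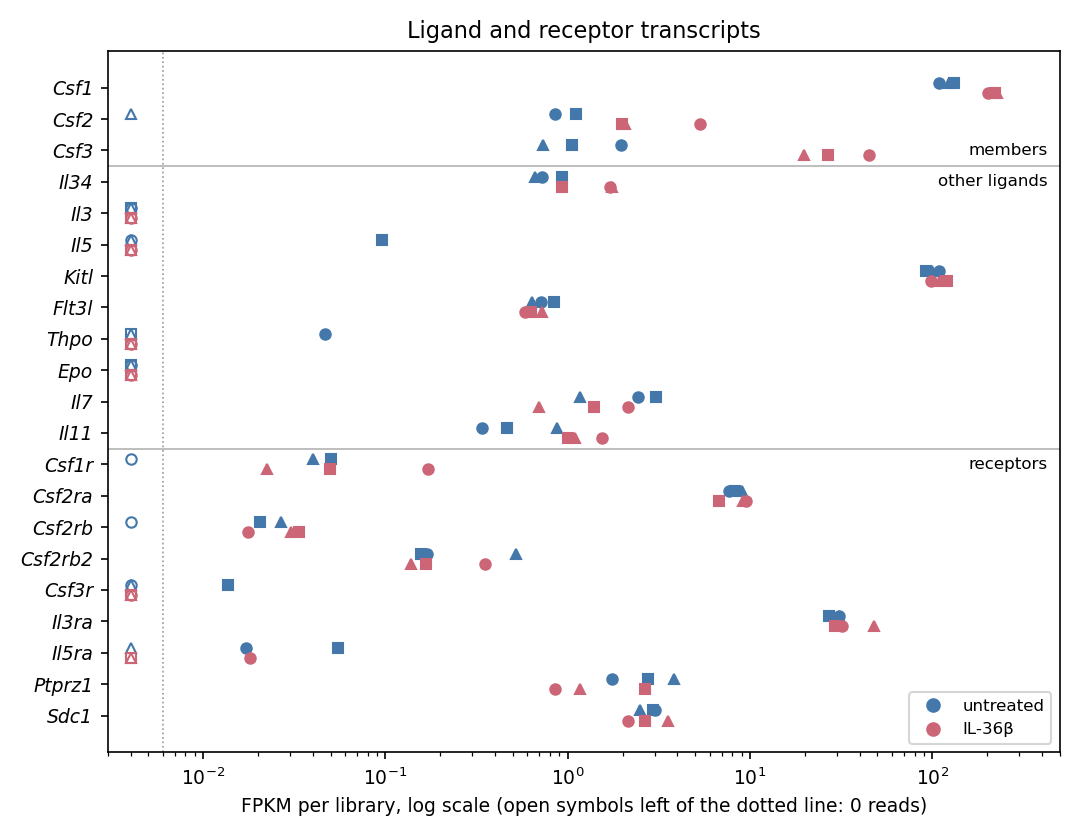
FPKM per library on a log axis for the 3 members, 9 other ligands and growth factors, and 9 receptor chains, untreated in blue and IL-36β in red; open symbols left of the dotted line are libraries with 0 reads. Csf1 and Kitl lie near or above 100 FPKM, while Csf1r, Csf2rb and Csf3r lie below 0.2 FPKM in every library.

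Among 9 other ligands of these receptors and haematopoietic growth factors, 5 were tested and none was called in limma (0.182% of all genes were called in either direction), edgeR or DESeq2, with 2 at an unadjusted p under 0.05, both higher (5.96% of all genes). Il34, the other ligand of the M-CSF receptor, stood at 0.723, 0.932 and 0.664 FPKM in the untreated libraries, replicates 1 to 3, against 1.71, 0.931 and 1.74 FPKM with IL-36β, and the groups overlapped. Il11, the other of these 2, measured 0.337, 0.466 and 0.873 FPKM untreated and 1.54, 0.998 and 1.09 FPKM with IL-36β. Its groups did not overlap, a pattern found higher with IL-36β in 8.95% of all genes tested (limma adjusted p = 0.376). Kitl, which encodes stem cell factor, was the one other factor at a level like that of Csf1, at 91.8 to 109 FPKM untreated and 98.8 to 120.3 FPKM with IL-36β, a fold of 1.09 (0.909 to 1.31). Il7, a lymphocyte growth factor, was next in abundance, with a fold of 0.701 (0.390 to 1.26). Il3 and Epo, the IL-3 and erythropoietin genes, had 0 reads in all libraries. Il3 is the neighbour of Csf2 in the mouse genome.

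Genes that carry signals from these receptors were present, and none was called in limma: 17 of 20 listed genes were tested, with 2 at an unadjusted p under 0.05, both higher, beside 5.96% of all genes, and a median log2 fold change of 0.07 beside 0.002 over all genes. The most abundant were Grb2, an adaptor (fold 1.06, 0.920 to 1.23), and Ptpn11, the phosphatase SHP2 (fold 0.982, 0.860 to 1.12). Socs3, a feedback inhibitor of G-CSF and IL-6 receptors, measured 21.4, 14.8 and 18.0 FPKM without IL-36β and 24.1, 25.4 and 44.3 FPKM with it, replicates 1 to 3 in order; it was not called in limma (adjusted p = 0.385) but was in DESeq2. Cish, a target of STAT5 downstream of GM-CSF, had a fold of 1.14 (0.899 to 1.45).

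Transcription factors known to act on colony-stimulating factor genes, listed with their partners and inhibitors, were the one pathway list with genes called in limma. Of 23 genes 22 were tested and 2 were called, both higher, beside 0.166% of all genes; both are regulators of NF-κB, the factor family that IL-1 family receptors activate. Nfkbia, the inhibitor IκBα, measured 91.4, 86.6 and 92.2 FPKM untreated and 165, 162 and 187 FPKM with IL-36β (fold 1.89, interval 1.61 to 2.22, adjusted p = 0.0275 by limma). Bcl3, a nuclear partner of NF-κB p50 and p52, measured 0.821, 0.997 and 0.578 FPKM untreated and 2.55, 2.88 and 3.44 FPKM with IL-36β (fold 2.67, interval 2.02 to 3.54, adjusted p = 0.0359 by limma). Leaving out any 1 library ended both calls. In 11 of the 22 the IL-36β libraries all stood above the untreated ones, against 8.95% of all genes tested. The median log2 fold change was 0.29 beside 0.002. Like the other lists, this one was chosen with earlier results of these data known, so nothing is read from that share and median.

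The remaining members of that list did not pass in limma. Nfkbiz, an IκB family coactivator of inflammatory genes, measured 4.59, 4.18 and 1.56 FPKM without IL-36β and 15.8, 10.8 and 10.9 FPKM with it, replicates 1 to 3 in order (limma adjusted p = 0.131), and it passed with library set as a term, with a block by library letter and in DESeq2. Nfkb2 had a fold of 1.72 (1.41 to 2.11; limma adjusted p = 0.0904) and passed in edgeR and DESeq2. Cebpd, a C/EBP family member, had a fold of 1.69 (1.36 to 2.10) and passed with library set as a term and in DESeq2. Relb and Nfkb1, which encode NF-κB subunits, passed in DESeq2 (adjusted p = 0.00248 and 0.00852) and under no other setting run; in limma their adjusted p was 0.180 and 0.159. Cebpb, a relative of Cebpd, overlapped between the groups, at 14.1 to 23.3 and 20.2 to 48.4 FPKM. The most abundant members were Rela, the p65 subunit, with a fold of 1.13 (0.962 to 1.32), and Nfkbia. Fos, a subunit of AP-1, had a fold of 0.605 (0.403 to 0.908), the only one of the list at an unadjusted p under 0.05 in the lower direction. Nfkbiz, Nfkb2, Cebpd, Relb, Nfkb1, Cebpb and Fos were picked for mention after their values were seen.

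Factors that degrade or stabilise messages with the ATTTA pentamers shown above, or with a stem-loop, were all tested (13 of 13), and neither limma nor edgeR called one. DESeq2 called 1. In limma 3 of 13 were higher at an unadjusted p under 0.05, beside 5.96% of all genes, and the median log2 fold change was 0.03. Zc3h12a, the endonuclease Regnase-1, which cuts stem-loops in cytokine messages, had the largest fold of the list, and it was picked for mention after its values were seen. It measured 2.54, 1.68 and 0.925 FPKM without IL-36β and 8.54, 5.76 and 5.32 FPKM with it, replicates 1 to 3 in order, so the groups did not overlap (fold 3.27, 2.04 to 5.23; limma adjusted p = 0.110). It passed with library set as a term, with a block by library letter, with a replicate block by title number and in DESeq2. Zfp36, which encodes tristetraprolin and is known to destabilise Csf2, was 10.1 to 12.5 FPKM without and 9.43 to 11.6 FPKM with IL-36β (fold 0.968, 0.792 to 1.18). The most abundant members were Zfp36l2, a relative of tristetraprolin (fold 0.985, 0.792 to 1.22), and Khsrp, a decay factor (fold 1.06, 0.871 to 1.29).

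**Figure D3:**
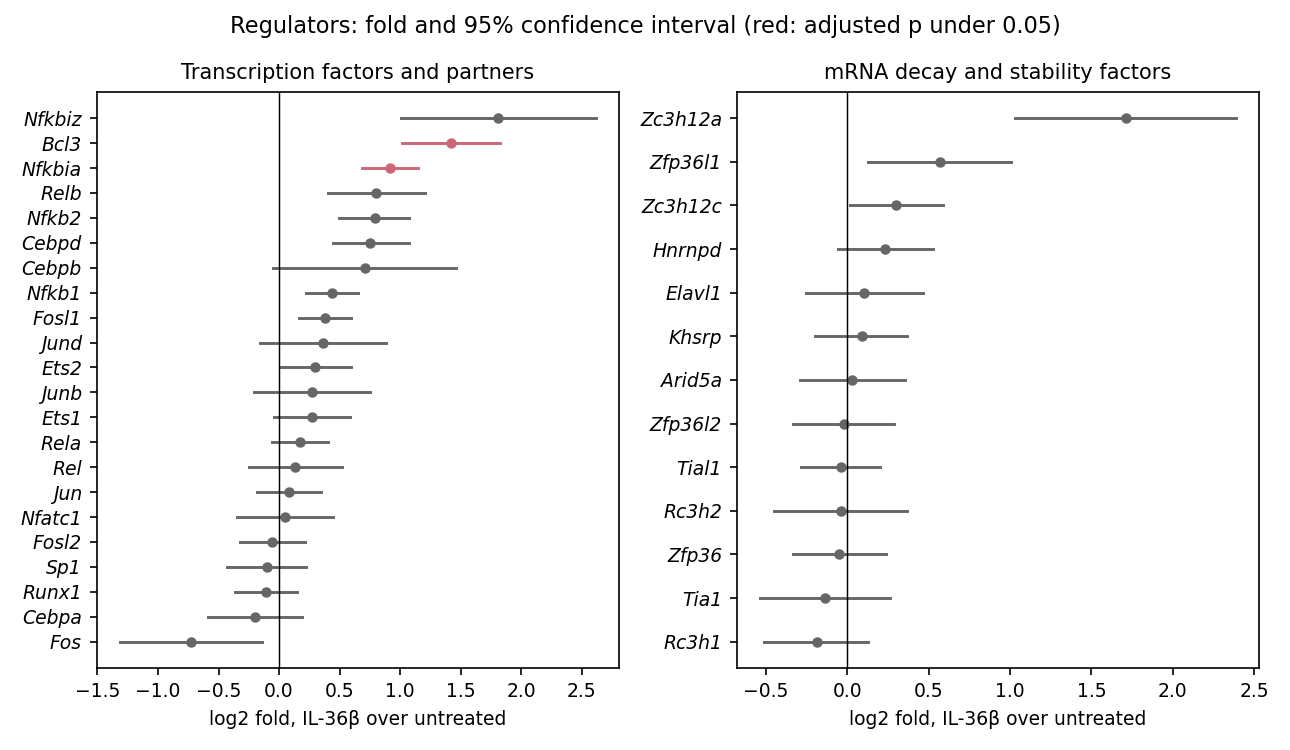
Fitted log2 fold of IL-36β over untreated cells with its 95% confidence interval for the tested transcription factors and partners (left) and message decay and stability factors (right); red marks an adjusted p under 0.05 in limma. Nfkbia and Bcl3 are the only red points, and Nfkbiz and Zc3h12a have the largest folds of their panels with wider intervals.

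Proteases and their partners that can release membrane-bound M-CSF from the cell surface were expressed, and none of the 7 was called in limma, edgeR or DESeq2; 1 had an unadjusted p under 0.05, in the lower direction, as 4.41% of all genes did. Adam17, the protease best known for this cleavage, had a fold of 1.10 (0.923 to 1.32). Adam9 and Adam15 were the most abundant, with folds of 0.829 (0.687 to 1.00) and 1.14 (0.918 to 1.41).

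Each member had its own set of genes with the most similar pattern over the 6 libraries. Likeness was the Pearson correlation on log2(FPKM + 0.5) among 984 genes that varied by at least 1 on this scale and reached a mean of 1 FPKM in a group. All points share the contrast between the groups, so these values are a description. The 5 nearest genes also depended on the setting. With 0.1 or 1 FPKM added, or with another scaling, 3 to 5 stayed the same for Csf1, 2 to 4 for Csf2 and 3 to 4 for Csf3. For Csf3 the nearest were Ptges (r = 0.9989), which encodes prostaglandin E synthase, Cxcl5 (0.9953) and Cxcl16 (0.9916), both chemokines, Icam1 (0.9815), an adhesion molecule, and the chemokine Ccl5 (0.9789). Ptges, like Csf3, was highest in IL-36β replicate 1 and lowest in untreated replicate 3, at 19.1, 15.4 and 13.5 FPKM with and 5.47, 4.76 and 4.50 FPKM without IL-36β.

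For Csf2 the nearest were Map3k8 (0.9987), a kinase of the NF-κB and ERK pathways, Gbp5 (0.9916), Plscr1 (0.9895), Ube2l6 (0.9886) and Gsdmd (0.9854). Gbp5, Plscr1 and Ube2l6 are known interferon-responsive genes, and Gsdmd encodes the pore protein gasdermin D. Each of these 5 was lowest in untreated replicate 3 and highest in IL-36β replicate 1, as Csf2 was; Map3k8, for example, measured 0.793, 0.899 and 0.274 FPKM without IL-36β and 1.97, 1.19 and 1.25 FPKM with it, replicates 1 to 3 in order. With 0.1 FPKM added in place of 0.5, 2 of the 5 were the same. For Csf1 the nearest were Susd2 (0.9845), Arrdc4 (0.9790), Bcl3 (0.9708), Il6 (0.9656) and Nfkbia (0.9648). Of these 5, all but Il6 had their lowest IL-36β value in replicate 1 or 2 and their highest in replicate 3. Arrdc4, an arrestin family gene, measured 8.55, 8.51 and 8.21 FPKM without IL-36β and 15.1, 16.9 and 17.4 FPKM with it, replicates 1 to 3 in order.

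The neighbours of the members on the chromosome did not pass the test. Of genes starting within 200 kb, 5 were tested around Csf1, 3 around Csf2 and 8 around Csf3, and none was called in limma; their log2 fold changes ran from -0.35 to 0.24, from -0.39 to -0.06 and from -0.42 to 0.21. Psmd3, a proteasome subunit gene that starts 18.7 kb upstream of Csf3, measured 28.9 to 30.5 FPKM without IL-36β and 31.7 to 36.2 FPKM with it. Med24, a Mediator subunit gene that starts 28.2 kb downstream, was 7.82, 7.21 and 7.74 FPKM and 8.81, 7.85 and 8.68 FPKM. Both had small shifts without overlap between the groups, of 0.21 and 0.14 on the log2 scale, and neither passed. Of the 8 tested around Csf3, 3 stood higher without overlap and 1 lower, beside 8.95% and 7.24% of all genes. Around Csf1 and around Csf2 it was 0 higher and 1 lower. Acsl6, 54.1 kb upstream of Csf2, and Ahcyl1, 63.9 kb downstream of Csf1, had log2 fold changes of -0.06 and -0.35. Nr1d1, a nuclear receptor gene of the circadian clock that starts 74.1 kb downstream of Csf3, had the lowest fold of the neighbours: 16.1, 17.0 and 18.6 FPKM untreated and 12.5, 14.5 and 11.4 FPKM with IL-36β, a log2 fold change of -0.42 that did not pass.

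**Figure D4:**
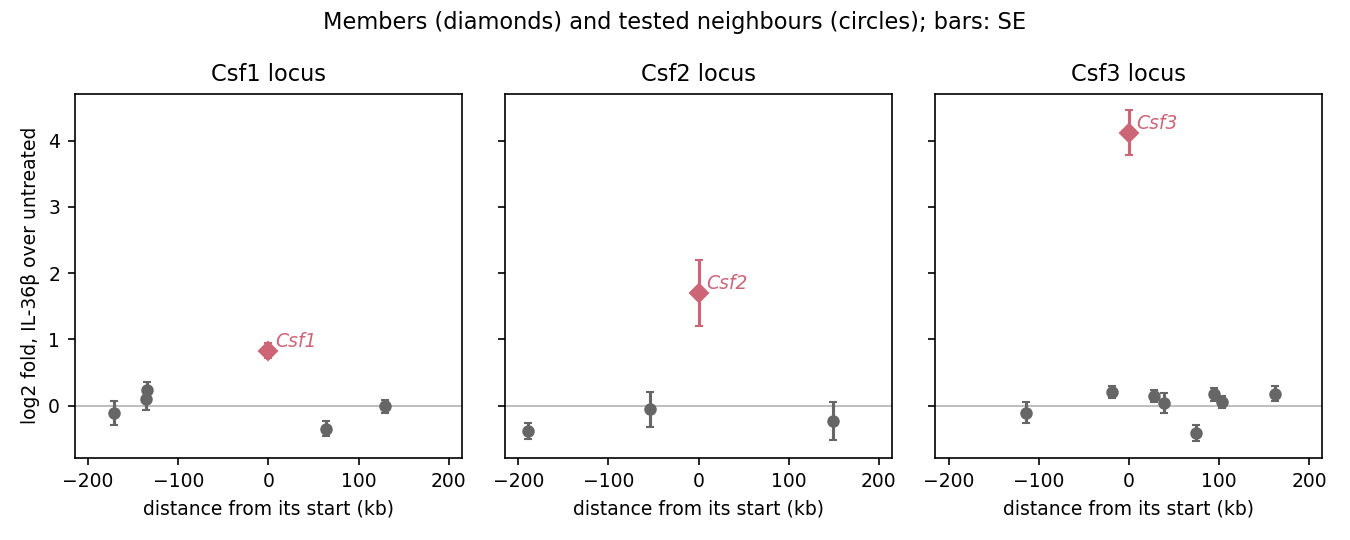
Log2 fold of IL-36β over untreated cells, with its standard error, for each member (red diamond) and the tested genes that start within 200 kb (grey circles), by distance in kb from the member's start along its direction of transcription. The neighbours stay between -0.42 and 0.24, below the members at 0.83, 1.70 and 4.12.

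The authors' deposited table of differential genes lists Csf2 and Csf3 as higher with IL-36β and does not list Csf1. In the authors' deposited table the log2 fold change was 3.69 for Csf2 and 4.28 for Csf3. The IL-36β group mean of Csf3 in the authors' deposited table, 1646 normalised counts, was 2.28 times the mean of the 3 IL-36β libraries there (723) and above the highest of them (1065). For Csf2 the authors' deposited table gives 108 normalised counts, 2.58 times the mean of the 3 libraries (41.9) and above the highest (71.5). For untreated cells the means in the authors' deposited table were 2.86 times the mean of the 3 libraries for Csf3 and 0.948 times for Csf2. Those group means are thus not the means of the libraries analysed here, and the fold changes of that table are not set against the ones above.

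The authors' deposited table of gene ontology terms among higher genes holds 4931 terms, of which 82 include Csf2, 65 include Csf3, 18 include both and 0 include Csf1. The term with both and the smallest p-value in the authors' deposited table was cytokine activity, with 22 genes (adjusted p = 2.01e-09), followed by leukocyte differentiation, with 33 genes (adjusted p = 1.39e-06).

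Other cell types that make or answer colony-stimulating factors were looked for by their markers. Of 10 endothelial markers all passed the filter, and their summed level was 2184 to 2545 FPKM without and 2216 to 2730 FPKM with IL-36β. Of 12 microglia and macrophage markers 11 stayed under 1 FPKM in every library, and C1qa, C1qb, Adgre1 and Tyrobp had 0 reads throughout; the twelfth, Cd68, is also made by other cells and had a fold of 1.04 (0.825 to 1.31). The neutrophil markers summed to at most 0.266 FPKM without and 1.11 FPKM with IL-36β, with S100a9, Mpo and Retnlg at 0 reads. The lymphocyte markers summed to at most 0.380 and 0.113 FPKM, with Cd3e, Cd3d and Nkg7 at 0 reads. Smooth muscle markers were high and variable, summing to 417 to 1395 FPKM without and 372 to 823 FPKM with IL-36β. Most of each sum was Acta2, at 339.7 to 1323 FPKM, and no other smooth muscle marker passed 40.6 FPKM. Myh11 and Cnn1 were lower in every IL-36β library than in any untreated one, as 7.24% of all genes tested were. They were called by neither limma nor edgeR, and DESeq2 called both. Pericyte markers summed to 5.31 to 6.89 and 4.02 to 6.65 FPKM, fibroblast markers to 0.561 to 1.23 and 0.804 to 2.88 FPKM, and astrocyte markers to 3.81 to 5.27 and 3.56 to 4.86 FPKM. Neuronal markers summed to 5.22 to 13.5 and 6.57 to 24.2 FPKM, nearly all of it Tubb3, and oligodendrocyte markers to at most 0.266 and 0.200 FPKM. The part of smooth muscle-like cells in the levels of the 3 members was not tested.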

How the data were processed

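Samples were grouped by their titles, and table columns were matched to samples by library name; 8 further per-library columns, which match no label, were not used. Tools named by the submitters' processing notes, without roles or a strand setting, are DESeq2 1.38.3, featureCounts 1.50-p3, HISAT2 2.05, StringTie and fastp, with the build GRCm38. The authors deposited FPKM for 54532 genes. Per the file headers, a second table of 660 genes holds the authors' raw counts, normalised counts (a signal scale of counts over a size factor), log2 fold changes and p-values, and another table holds gene ontology terms with p-values. FPKM times gene length gave whole reads, within 0.01, in 100.0% of values below the most abundant genes, and these equal the deposited counts in all 660 genes.

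The test was two-sided, with limma's trended prior (limma 3.58.1, R 4.3.3). It was also run on simulated reads with no shared effect of library set, so that run does not cover such an effect. Fold changes on the log2(FPKM + 0.5) scale understate those of low genes. Confidence intervals are at 95%. edgeR 4.0.16 and DESeq2 1.42.0 on recovered reads, other pseudocounts, filters and scalings, blocks, library set and leaving out each library were alternatives. The members and gene lists were chosen with earlier results of these data known. Named were the members, all receptors, and genes of the other lists that passed in limma or were the 2 most abundant. Also named were the 5 genes most like each member and some of the tested neighbours. The NF-κB consensus was chosen after the promoter windows had been read. Other list genes were named for their role or after their values were seen.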

Additional observations from a re-analysis of the deposited data

How the results depend on the processing

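The direction of all 3 members held under every setting run, with log2 fold changes of 0.71 to 0.90 for Csf1, 1.18 to 2.58 for Csf2 and 3.76 to 4.60 for Csf3. Among these, 2 values moved by more than the spread between replicates: Csf2 to 2.58 with a pseudocount of 0.1 and Csf1 to 0.71 with quantile normalization. The number of genes called depended on the setting. Main counts were 21 higher, 2 lower and 2 in the pathway lists. Without a filter on low values they were 0, 0 and 0. With library set as a term they were 85, 17 and 5, with a block by library letter 67, 11 and 4, and in DESeq2 160, 100 and 9. edgeR called 33 higher and 4 lower, and TPM scaling left 4 lower. Leaving out each library gave 1 to 7 higher, 0 to 1 lower and 0 to 0 in the pathway lists, and members' values of 0.76 to 0.90 (Csf1), 1.18 to 2.02 (Csf2) and 3.81 to 4.40 (Csf3). A replicate block by title number gave 12 higher, 1 lower and 1 pathway gene, Zc3h12a in place of Nfkbia and Bcl3. The correlations of same-numbered deviations were 0.207, -0.141 and 0.211 for replicates 1 to 3. The replicate 1 pair also shares the letter A. With 3 libraries per group, these correlations cannot show whether the numbers or the letters pair the libraries. Untreated replicate 2 correlated best with IL-36β replicate 1 (0.388), not with its own number. The libraries that share a letter had correlations of 0.207 (A) and 0.275 (D), and IL-36β replicate 2 correlated best with its D partner, untreated replicate 3. Depth limits Csf2 and the receptors, where single libraries hold 0 to 66 and 0 to 38 reads for Csf2 and for Csf1r, Csf2rb, Csf2rb2, Csf3r and Il5ra. Causes of these shifts were not tested.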
